A study of Mus musculus with 24 samples.

Results

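The clustered protocadherin genes of the mouse lie head to tail on chromosome 18 in the order Pcdha, Pcdhb and Pcdhg. H3K4me3 was examined at the promoters of these genes in 12 ChIP-Seq libraries of cerebral cortex. Members were the peak regions of the deposited list that overlap an annotated transcription start site (TSS) of a gene whose symbol begins with Pcdha, Pcdhb or Pcdhg. There were 16 such regions among 17993 regions in all, and 13404 of the 17993 overlapped a TSS of any gene. Of the 16 regions, 6 belonged to Pcdha, 3 to Pcdhb and 7 to Pcdhg. The region of Pcdhga11 also holds the TSS of Gm16882, and reads of the 2 cannot be told apart.

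All animals were C57BL/6 mice carrying histone H2B tagged with FLAG (H2B-FLAG) under the CAG promoter at the Rosa26 locus. In Rosa H2B-FLAG mice (genotype Rosa CAG-H2B-FLAG), the floxed stop had been removed with Vasa-Cre, so the tag is made in nearly all cells throughout life. In Camk2a H2B-FLAG mice (the Rosa26 CAG-floxed-pA-H2B-FLAG allele together with CaMKCreERT2), the tag is switched on by Cre in Camk2a-expressing neurons. These males received 1 mg of tamoxifen per day for 5 days from the age of 8 weeks and were killed a month later, while for Rosa H2B-FLAG mice the sources used here state adult brains and no further age or sex. In single ChIP-Seq, crosslinked chromatin of the whole cortex was precipitated with an antibody against H3K4me3. In tandem ChIP-Seq (tChIP-Seq), it was first precipitated with an antibody against FLAG, and the eluate was precipitated again for H3K4me3. The 4 groups had 3 libraries each, and each lysate came from the cortices of 2 animals. Part of the tagged histone carries an N-terminal extension, and the Camk2a driver marks excitatory neurons as a class rather than a single type.

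Clustered protocadherins are cell adhesion proteins that bind only the same isoform on another membrane, and they give single neurons a surface identity used in self-avoidance of dendrites and axons. Each alpha and gamma isoform is made from its own promoter and first exon, which is spliced to constant exons shared by the cluster, whereas each beta gene is a single exon. Most alpha, beta and gamma promoters are chosen at random in single neurons by looping to distant enhancers through CTCF and cohesin. The last promoters of the alpha and gamma clusters, called C-type (Pcdhac1, Pcdhac2, Pcdhgc3, Pcdhgc4 and Pcdhgc5), are not chosen in this random way and are used more evenly. H3K4me3 is found on nucleosomes around most active promoters, but a marked promoter need not be transcribed, and transcription was not measured here. In a mixture of cells, a mark carried by more cells and a stronger mark in each cell cannot be told apart.

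The total count in the 17993 regions was between 6316125 and 8644574 in the Rosa single ChIP-Seq libraries, between 4063200 and 4233144 in the Camk2a single libraries, between 1457261 and 1828371 in the Rosa tandem libraries and between 2709729 and 3049130 in the Camk2a tandem libraries. Levels are given as CPM, the count at a region per 1000000 counts of the library, after TMM scaling over the 12 libraries. The lines were checked with markers of cortical cell types. The summed level of 8 regions of excitatory neuron genes was 881 to 899 CPM in Rosa single, 520 to 554 CPM in Rosa tandem, 871 to 892 CPM in Camk2a single and 1056 to 1102 CPM in Camk2a tandem libraries. The 5 regions of astrocyte genes summed to 275 to 333 CPM in Rosa tandem and to 78.8 to 80.7 CPM in Camk2a tandem libraries. The 5 regions of endothelial genes summed to 239 to 243 CPM and 66.8 to 77.4 CPM in these groups. The 5 regions of inhibitory neuron genes summed to 103 to 123 CPM and 60.4 to 66.9 CPM, with 3 of 5 called lower in Camk2a. The 4 regions of oligodendrocyte genes summed to 110.2 to 121 CPM and 51.2 to 57.4 CPM, with 3 of 4 called lower. Of all regions, 14.6% were called lower in this comparison. No region overlapped a TSS of the 6 microglial genes. The part of cell composition in the protocadherin results was not tested.

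Member regions were present for some genes of each cluster, and their number depended on the annotation and on the rule of overlap. RefSeq lists 58 protein genes in the locus, 14 alpha, 22 beta and 22 gamma. A member region was present for 6 alpha genes (Pcdha4, Pcdha9, Pcdha11, Pcdha12, Pcdhac1 and Pcdhac2), for 3 beta genes (Pcdhb1, Pcdhb2 and Pcdhb12) and for 7 gamma genes (Pcdhga3, Pcdhga9, Pcdhgb6, Pcdhga11, Pcdhgc3, Pcdhgc4 and Pcdhgc5). All 5 C-type promoters were among them. For 6 further genes a region lay within 500 bp of the TSS without touching it, at 1 bp for Pcdhb5, 2 bp for Pcdhb16, 37 bp for Pcdhga8, 54 bp for Pcdhb14, 229 bp for Pcdhb10 and 355 bp for Pcdhga12. A further region lay 415 bp from the TSS of Pcdha12, at the TSS of Gm10545. For 5 others (Pcdhga2, Pcdhga4, Pcdhga5, Pcdhga6 and Pcdhga7) the annotation has no TSS, and the gene length in RefSeq places the start inside a region. The remaining 31 genes were assigned no region. These were Pcdha1, Pcdha2, Pcdha3, Pcdha5, Pcdha6, Pcdha7, Pcdha8 and Pcdha10 in the alpha cluster. In the beta cluster they were Pcdhb3, Pcdhb4, Pcdhb6, Pcdhb7, Pcdhb8, Pcdhb9, Pcdhb11, Pcdhb13, Pcdhb15, Pcdhb17, Pcdhb18, Pcdhb19, Pcdhb20, Pcdhb21 and Pcdhb22. In the gamma cluster they were Pcdhga1, Pcdhga10, Pcdhgb1, Pcdhgb2, Pcdhgb4, Pcdhgb5, Pcdhgb7 and Pcdhgb8. For 12 of the 31 (Pcdha5 to Pcdha8 and the 8 gamma genes), no TSS under that name was found in the annotation, so a region at their start could not have been assigned by TSS. The levels of the 31 genes were not measured here.

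Of the C-type promoters, 4 had regions wider than the median of all regions with a TSS, while Pcdhac1 and the 11 other members had narrower ones. On mm9, the region of Pcdhac2 covered chr18:37302651-37309240 (6590 bp) and that of Pcdhgc5 chr18:37979081-37985271 (6191 bp). The regions of Pcdhgc3 at chr18:37965336-37969308 (3973 bp) and Pcdhgc4 at chr18:37973772-37976289 (2518 bp) were narrower, and that of Pcdhac1 at chr18:37249382-37250582 was 1201 bp wide. Among the 13404 regions with a TSS, whose median width was 2060 bp, Pcdhac2 ranked 84, Pcdhgc5 ranked 134, Pcdhgc3 ranked 1130, Pcdhgc4 ranked 4387 and Pcdhac1 ranked 11671 by width. The 11 other member regions measured 270 to 1066 bp with a median of 402 bp, and 9.46% of all regions with a TSS were no wider than 1066 bp. The median GC content was 52.9% in the C-type regions, 53.1% in the other members and 54.2% in all regions with a TSS, and the observed over expected CpG ratio was 0.544, 0.607 and 0.605. The C-type regions contained no 80-base sequence with an identical copy elsewhere in the genome. Such copies made up 12.8% of the 80-base windows of the Pcdha4 region, 2.61% of Pcdha11 and 1.98% of Pcdha12, and none in the other 13 members.

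The mean level was higher at each C-type promoter than at each other member in all 4 groups. In Rosa single libraries, which sample the whole cortex, the mean level was 127 ± 3.98 CPM (SD, n = 3) at Pcdhgc5, 124 ± 1.91 at Pcdhac2, 86.7 ± 3.82 at Pcdhgc3, 42.9 ± 1.65 at Pcdhgc4 and 15.5 ± 1.24 at Pcdhac1. Pcdhgc5 and Pcdhac2 did not differ beyond their spread. The 11 other members lay between 1.64 CPM (Pcdha4) and 9.33 CPM (Pcdhga11), with a median of 2.59 CPM, beside a median of 63.6 CPM over all regions with a TSS. Per kilobase of region, the C-type promoters held 12.9 to 21.8 CPM and the others 4.76 to 9.64 CPM, while the median of all regions with a TSS was 29.3 CPM per kilobase. The C-type promoters made up 94.0% ± 0.26 (SD, n = 3) of the summed member level of the alpha cluster and 92.6% ± 0.149 of that of the gamma cluster in these libraries. Both shares count members alone. In Rosa single libraries, the region 415 bp from the Pcdha12 TSS raised the alpha sum outside the C-type group from 8.84 to 11.8 CPM. With the gamma regions within 500 bp of a TSS and those placed by gene length, promoters outside the C-type group summed to 62.2 CPM in place of 20.6 CPM in Rosa single libraries. In the other groups the mean share among members was 94.4% to 95.6% in alpha and 91.8% to 92.9% in gamma. Relative to other promoters, Pcdhgc5 exceeded 67.7% of all regions with a TSS per kilobase in Camk2a tandem libraries and 15.7% in Rosa tandem libraries, and Pcdhgc3 exceeded 21.5% and 58.1%. Pcdhac2 exceeded 51.4% and 14.4%. The order of the C-type promoters by level per kilobase thus differed between these groups, with Pcdhgc5 first in Camk2a tandem and Pcdhgc3 first in Rosa tandem libraries.

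**Figure D1:**
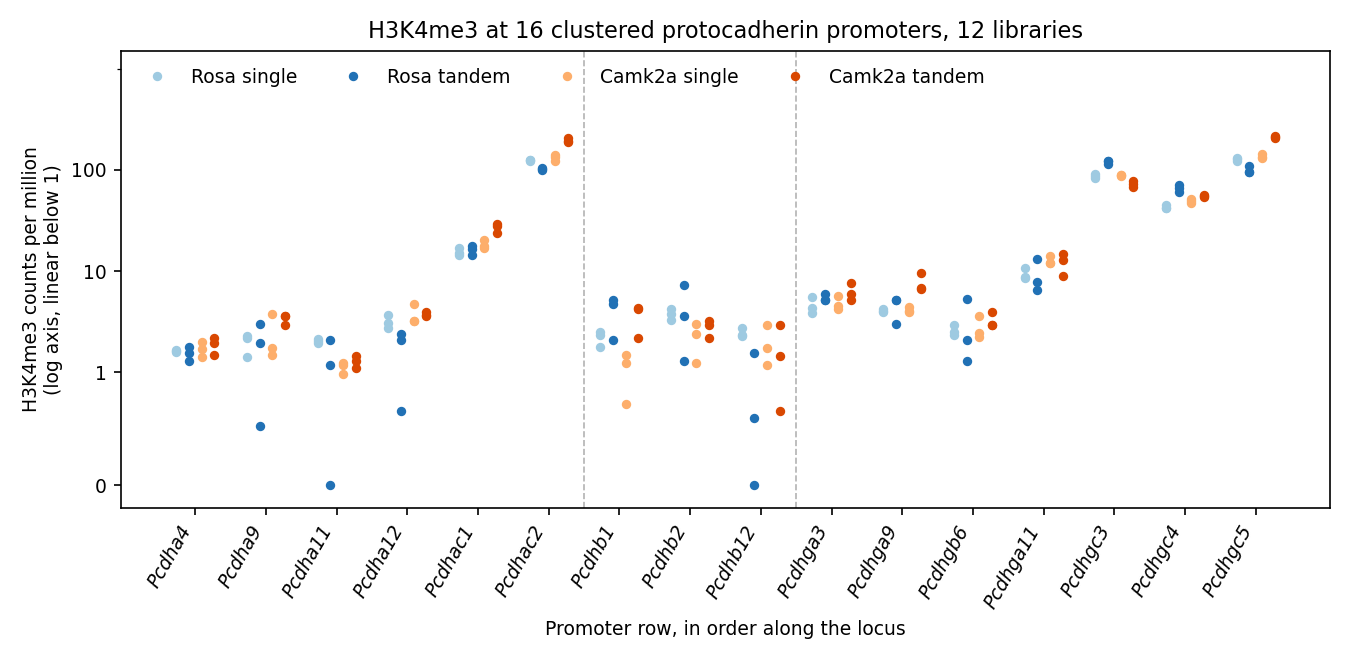
H3K4me3 level (CPM on a log axis that is linear below 1) of the 16 clustered protocadherin promoter regions in order along the locus, with 1 point per library and colours for the 4 groups of 3 libraries. Dashed lines separate the Pcdha, Pcdhb and Pcdhg clusters. Pcdhac2, Pcdhgc3, Pcdhgc4 and Pcdhgc5 lie above 40 in each library, Pcdhac1 between 14.3 and 29.2, and the other 11 members below 15.

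The comparison of Camk2a with Rosa H2B-FLAG mice in tChIP-Seq asks which promoters carry the mark in Camk2a neurons relative to all tagged cells of the cortex. H3K4me3 was higher in Camk2a than in Rosa tandem libraries at Pcdhgc5, Pcdhac2 and Pcdhac1 and lower at Pcdhgc3. Pcdhgc3, Pcdhgc4 and Pcdhgc5 are nevertheless neighbours that share their constant exons. The lines also differed in Cre driver and tamoxifen treatment, and the part of these in the differences was not tested. In this comparison 4 of the 16 members were called at an adjusted p under 0.01 (edgeR's quasi-likelihood test, Benjamini-Hochberg adjustment over all regions), beside 31.6% of all regions, with 17.0% called higher and 14.6% called lower. The share of members called was thus near that of all regions. The libraries of the 2 lines did not overlap at 7 members, higher in Camk2a at 5 and lower at 2, beside 24.8% and 23.6% of all regions. The 4 called members were all C-type, and none of the 11 others was called. The median log2 fold change was 0.73 over the 5 C-type members, 0.26 over the 11 others and 0.00 over all regions, with the C-type values running from -0.72 to 1.10. Summed over members, the alpha cluster had 222 to 246 CPM in Camk2a tandem and 123 to 126 CPM in Rosa tandem libraries, and the gamma cluster 366 to 371 CPM and 291 to 324 CPM.

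Pcdhgc5, the last promoter of the gamma cluster, had 206, 213 and 215 CPM in the 3 Camk2a tandem libraries and 94.4, 108 and 95.8 CPM in the 3 Rosa tandem libraries. Each Camk2a library was above each Rosa library by about the level of the Rosa libraries themselves. The log2 fold change was 1.10 ± 0.069 (SE), which is 2.14-fold (edgeR, adjusted p = 3.9e-24).

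Pcdhac2, the last promoter of the alpha cluster, had 188, 206 and 192 CPM in Camk2a tandem libraries and 99.7, 102 and 104 CPM in Rosa tandem libraries. The groups did not overlap, and the log2 fold change was 0.94 ± 0.070 (SE, edgeR adjusted p = 2.1e-20). Pcdhac1, the other C-type promoter of this cluster, had 24.0, 29.2 and 27.6 CPM against 16.7, 14.3 and 17.7 CPM. Its log2 fold change was 0.73 ± 0.18 (SE, edgeR adjusted p = 0.00045). In single ChIP-Seq the Camk2a libraries also lay above the Rosa libraries at Pcdhac1 (0.24 ± 0.13 SE, edgeR adjusted p = 0.25).

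Pcdhgc3, the first C-type promoter of the gamma cluster, went the other way, with 71.9, 77.2 and 68.2 CPM in Camk2a tandem libraries and 115, 122 and 122 CPM in Rosa tandem libraries. All Camk2a libraries were below all Rosa libraries, and the log2 fold change was -0.72 ± 0.083 (SE, edgeR adjusted p = 6.9e-12). Pcdhgc4, which lies between Pcdhgc3 and Pcdhgc5, had 54.8, 53.8 and 56.4 CPM against 60.5, 66.8 and 70.9 CPM. These groups did not overlap either, but the difference of -0.25 ± 0.10 (SE) was not called (edgeR, adjusted p = 0.045). It was called when libraries were scaled by their totals (log2 fold change -0.32, adjusted p = 0.0084).

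**Figure D2:**
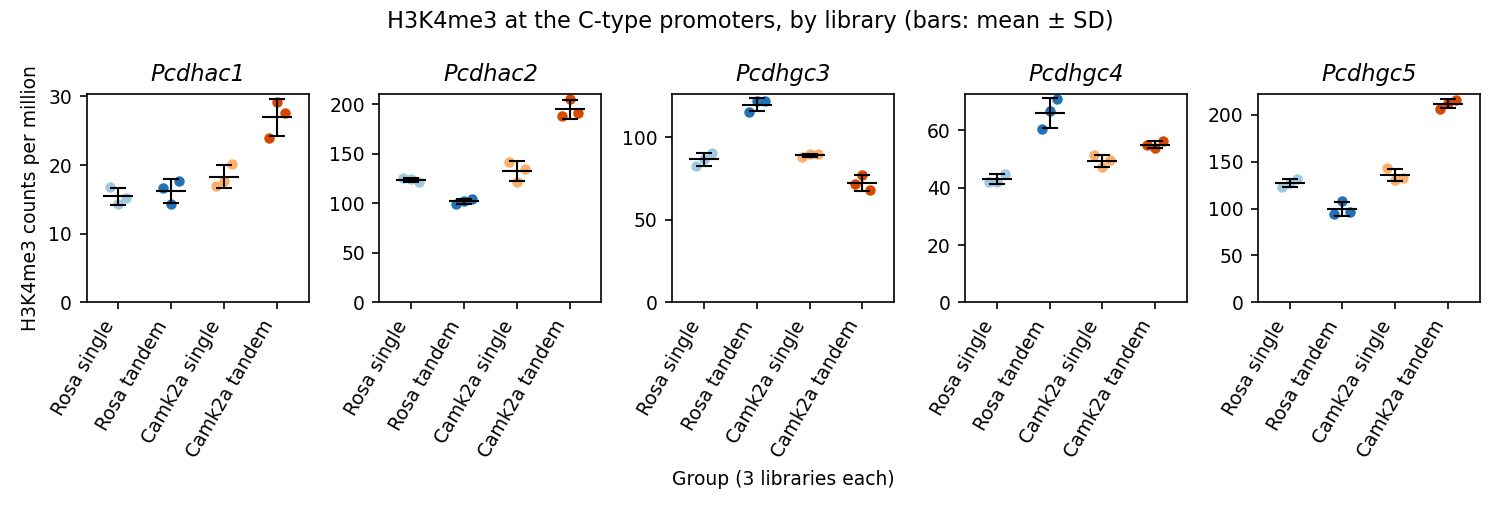
H3K4me3 level (CPM) at the 5 C-type promoters in the 4 groups, with 1 point per library and bars for the mean and SD of 3 libraries. In Camk2a tandem libraries Pcdhac1, Pcdhac2 and Pcdhgc5 lie above all other groups, while Pcdhgc3 lies below them. The means of the 2 groups of single ChIP-Seq are 86.7 and 89.1 at Pcdhgc3 and 127 and 136 at Pcdhgc5.

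The opposite shifts within the gamma cluster were measured as the ratio of the Pcdhgc5 count to the Pcdhgc3 count in each library, which does not depend on scaling and was added after the levels had been seen. The ratio was 2.87, 2.75 and 3.16 in Camk2a tandem libraries and 0.819, 0.883 and 0.785 in Rosa tandem libraries. It was 1.49, 1.46 and 1.45 in Rosa single libraries and 1.62, 1.46 and 1.48 in Camk2a single libraries. Pcdhgc5 thus held more counts than Pcdhgc3 in all libraries but the Rosa tandem ones. The ratio was 3.53 times higher in Camk2a than in Rosa tandem libraries and 1.03 times in single libraries (exact two-sided permutation tests, 3 against 3, p = 0.1 and p = 0.6). The first value is the smallest p such a test allows, and p was 0.167 and 0.667 after adjustment over the 20 ratio comparisons made. The ratio of Pcdhgc5 to Pcdhac2, which are the last promoters of 2 different clusters, stayed near 1, with means of 1.03 ± 0.047 (SD, n = 3) in Rosa single, 0.975 ± 0.074 in Rosa tandem, 1.02 ± 0.046 in Camk2a single and 1.08 ± 0.047 in Camk2a tandem libraries. The ratio of Pcdhgc4 to Pcdhgc3 was 0.762 ± 0.065 in Camk2a tandem and 0.551 ± 0.028 in Rosa tandem libraries.

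The 11 promoters outside the C-type group had few counts, and none was called between the lines in tChIP-Seq by edgeR or by DESeq2, while 2 had an unadjusted p under 0.05. Their counts summed over the 12 libraries were between 75 and 510. Of the 3930 regions of the list with a summed count in this range, 27.4% were called. The upper end of the range came from Pcdhga11 alone, and most of the 11 lay in its lower part. This share therefore also covers regions with more counts than most of the 11. The log2 fold change was positive for 9 of the 11 and for 49.5% of all regions. It was positive for 3 and negative for 4 of the 7 regions within 500 bp of a protocadherin TSS. Of the 5 regions placed by RefSeq gene length, 1 was positive and 4 were negative. The 2 of the 11 members with an unadjusted p under 0.05 were Pcdha12 at 1.08 ± 0.51 (SE, edgeR adjusted p = 0.083) and Pcdhga9 at 0.78 ± 0.34 (SE, edgeR adjusted p = 0.054). Neither passed the adjustment. Pcdha12 had 11, 11 and 10 counts in Camk2a tandem libraries and 4, 4 and 1 counts in Rosa tandem libraries. Pcdhga9 had 9.51, 6.86 and 6.63 CPM in Camk2a tandem and 5.22, 2.98 and 5.25 CPM in Rosa tandem libraries. Neither pair of groups overlapped. At this depth the 95% interval of the log2 fold change was still wide, from -1.30 to 1.58 for Pcdha11 and from -0.75 to 1.08 for Pcdhgb6.

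Among these weak promoters, Pcdha11 had the lowest mean level of the alpha members, with 1.31, 1.44 and 1.11 CPM in Camk2a tandem libraries and 2.09, 1.19 and 0 CPM in Rosa tandem libraries. Pcdhb12, the lowest of the beta members, had 2, 4 and 8 counts in Camk2a tandem and 3, 1 and 0 counts in Rosa tandem libraries. Pcdhb2, the highest of the beta members over the 12 libraries but below Pcdhb1 in the Camk2a tandem ones, had 2.95, 3.25 and 2.21 CPM against 7.31, 3.58 and 1.31 CPM. Its log2 fold change was -0.60 ± 0.44 (SE, edgeR adjusted p = 0.30), and it was 0.17 without Rosa tandem replicate 1. Pcdhgb6, the lowest gamma member, had 2.95, 3.97 and 2.95 CPM against 2.09, 5.37 and 1.31 CPM. The groups overlapped at each of these 4 promoters. The alpha members outside the C-type group summed to 9.21 to 11.2 CPM in Camk2a tandem and to 3.94 to 8.35 CPM in Rosa tandem libraries, and the beta members summed to 7.37 to 9.02 CPM against 6.56 to 11.0 CPM.

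**Figure D3:**
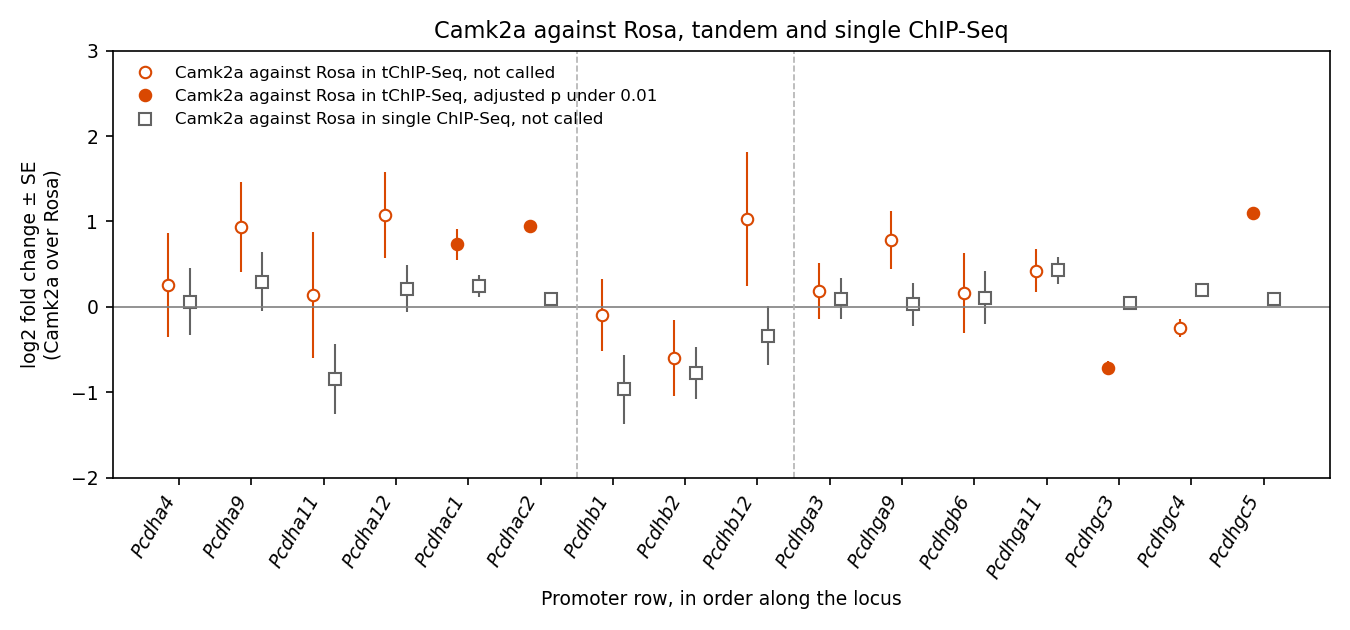
log2 fold change (Camk2a over Rosa H2B-FLAG) with SE at the 16 promoter regions in order along the locus, in tChIP-Seq (circles) and single ChIP-Seq (squares), each from 3 against 3 libraries. Filled symbols mark an adjusted p under 0.01. Filled circles are Pcdhac1, Pcdhac2 and Pcdhgc5 above 0 and Pcdhgc3 below 0, and no square is filled.

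In single ChIP-Seq, where no tag selects the cells, the lines were compared as the background of the same tissue. None of the 16 members was called by edgeR, beside 2.15% of all regions (0.928% higher and 1.22% lower in Camk2a), while 6 had an unadjusted p under 0.05. DESeq2 called none either, but its own filter left 14 of the 16 without an adjusted p. The libraries did not overlap at 6 members, higher in Camk2a at 3 and lower at 3, beside 12.3% and 12.7% of all regions. The 3 higher were Pcdhac1, Pcdhgc4 and Pcdhga11, and the 3 lower were Pcdha11, Pcdhb1 and Pcdhb2. Of the regions with summed counts from 75 to 510, the range of the 11 weak members, 1.83% were called. Pcdhgc5 had 143, 131 and 133 CPM in Camk2a and 123, 128 and 131 CPM in Rosa libraries, which overlapped. Its log2 fold change was 0.09 ± 0.046 (SE, edgeR adjusted p = 0.24), with a 95% interval from 0.00 to 0.18. The values of the other C-type promoters were 0.09 ± 0.047 at Pcdhac2, 0.04 ± 0.056 at Pcdhgc3, 0.20 ± 0.079 at Pcdhgc4 and 0.24 ± 0.13 at Pcdhac1. The 3 beta members had negative values, -0.96 ± 0.40 at Pcdhb1, -0.78 ± 0.30 at Pcdhb2 and -0.34 ± 0.34 at Pcdhb12, and none passed the adjustment. The region 2 bp from the Pcdhb16 TSS was called lower in Camk2a single libraries, with 4, 4 and 6 counts against 23, 36 and 18 counts in Rosa single libraries (log2 fold change -1.64 ± 0.36 SE, edgeR adjusted p = 0.0016). This call was lost without Camk2a single replicate 1 or 2 or Rosa single replicate 2 (adjusted p = 0.015, 0.025 and 0.024) and with counts thinned to the totals of tChIP-Seq (log2 fold change -1.17, adjusted p = 0.44).

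Whether the difference between the lines was itself different between the kinds of ChIP-Seq was tested as an interaction over all 12 libraries. Of the 16 members, 4 were called, beside 26.9% of all regions, with 13.7% of all regions called positive and 13.2% negative. The interaction was positive at Pcdhgc5 (1.00 ± 0.085 SE on the log2 scale; edgeR, adjusted p = 2.0e-24) and at Pcdhac2 (0.84 ± 0.086 SE, adjusted p = 4.3e-18). It was negative at Pcdhgc3 (-0.76 ± 0.10 SE, edgeR adjusted p = 9.1e-12) and at Pcdhgc4 (-0.46 ± 0.13 SE, adjusted p = 0.0025). The call at Pcdhgc4 was lost without Rosa tandem replicate 3, where the value was -0.41 and the adjusted p 0.017. At Pcdhac1 the interaction of 0.48 ± 0.22 (SE) was not called (edgeR, adjusted p = 0.085). No member outside the C-type group was called by edgeR or DESeq2, and none of them had an unadjusted p under 0.05. Of the regions with summed counts from 75 to 510, edgeR called 20.3%.

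tChIP-Seq and single ChIP-Seq were also compared within each line. These comparisons share libraries with the ones above, so their values are given side by side and not as separate evidence. The paper also found sites higher or lower in tandem than in single libraries of Rosa mice. As possible causes it names longer DNA after the first purification, the FLAG epitope and the tagged H2B itself. To offset such biases, the paper mainly compared tandem libraries between the lines. The part of these biases in the values below was not tested. In Rosa H2B-FLAG mice, in which nearly all cells carry the tag, 4 of the 16 members were called, beside 47.2% of all regions (24.7% higher and 22.5% lower in tandem libraries). The libraries did not overlap at 6 members, higher in tandem libraries at 2 and lower at 4, beside 30.2% and 32.1% of all regions. Pcdhgc3 and Pcdhgc4 were higher in tandem than in single libraries, with log2 fold changes of 0.48 ± 0.071 (SE, edgeR adjusted p = 1.5e-10) and 0.63 ± 0.099 (SE, adjusted p = 1.6e-09). Pcdhgc5 and Pcdhac2 were lower, by -0.35 ± 0.069 (SE, edgeR adjusted p = 2.4e-06) and -0.27 ± 0.069 (SE, adjusted p = 0.00021). The call at Pcdhac2 was lost when libraries were scaled by their totals (log2 fold change -0.17, adjusted p = 0.024). Pcdhac1 stood at 0.09 ± 0.18. Markers of cell types also differed between these libraries. From single to tandem, the median of the summed level went from 882 to 546 CPM for excitatory neurons, from 124 to 111 CPM for oligodendrocytes, from 81.8 to 122 CPM for inhibitory neurons, from 231 to 319 CPM for astrocytes and from 187 to 241 CPM for endothelial cells, and their part in the result was not tested.

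In Camk2a H2B-FLAG mice, 6 of the 16 members were called between tandem and single libraries, beside 47.9% of all regions (25.3% higher and 22.6% lower in tandem libraries). The libraries did not overlap at 7 members, higher in tandem libraries at 6 and lower at 1, beside 31.1% and 30.6% of all regions. Pcdhgc5 was higher in tandem libraries by 0.64 ± 0.052 (SE, edgeR adjusted p = 6.6e-25), Pcdhac2 by 0.56 ± 0.053 (SE, adjusted p = 5.4e-19) and Pcdhac1 by 0.55 ± 0.14 (SE, adjusted p = 0.00032), and Pcdhgc3 was lower by -0.30 ± 0.074 (SE, adjusted p = 0.00024). Pcdhgc4 stood at 0.16 ± 0.092 (edgeR, adjusted p = 0.13). Outside the C-type group 2 of 11 members were called, beside 46.3% of the regions with summed counts from 75 to 510. Pcdhb1, the first gene of the beta cluster, had 13, 12 and 6 counts in tandem and 5, 3 and 6 counts in single libraries, which in CPM were 4.27, 4.33 and 2.21 against 1.23, 0.716 and 1.49. Its log2 fold change was 1.64 ± 0.44 (SE, edgeR adjusted p = 0.00070). Pcdhga9 had 4.43, 4.06 and 3.99 CPM in single libraries and was higher in tandem libraries by 0.89 ± 0.27 (SE, edgeR adjusted p = 0.0029). The call at Pcdhga9 was lost without Camk2a tandem replicate 1 (log2 fold change 0.69, adjusted p = 0.058), without Camk2a single replicate 2 (0.87, adjusted p = 0.011) and without Camk2a single replicate 3 (0.86, adjusted p = 0.011). DESeq2 called 3 of the 6 members, leaving out Pcdhac1, Pcdhb1 and Pcdhga9 with adjusted p = 0.011, 0.022 and 0.041. In the Rosa line none of the 11 was called by edgeR or DESeq2, and 2 had an unadjusted p under 0.05. Of the regions with summed counts from 75 to 510, 47.9% were called by edgeR. Pcdhb12 had 16, 23 and 14 counts in single and 3, 1 and 0 counts in tandem libraries, a log2 fold change of -1.62 ± 0.62 (SE) that was not called (edgeR, adjusted p = 0.018). It was -2.88 without Rosa tandem replicate 1 (adjusted p = 0.0080).

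Regions close to protocadherin TSSs that are not members were compared between the lines in the same way in tChIP-Seq. None of the 7 regions within 500 bp of a protocadherin TSS was called by edgeR or DESeq2, and 3 had an unadjusted p under 0.05. None of the 5 regions placed by RefSeq gene length was called by either, and 1 had an unadjusted p under 0.05. Of all regions, edgeR called 31.6%. The 4 beta regions within 500 bp of a TSS had log2 fold changes of -0.39 (Pcdhb10), -1.02 (Pcdhb16), -1.12 (Pcdhb5) and -1.16 (Pcdhb14). The Pcdhb14 region had at most 2.95 CPM in Camk2a tandem libraries and 8.87, 2.98 and 2.62 CPM in Rosa tandem libraries, which overlapped (-1.16 ± 0.45 SE, edgeR adjusted p = 0.031). With these 4 regions included, the beta cluster summed to 12.9 to 17.1 CPM in Camk2a tandem and to 19.0 to 26.6 CPM in Rosa tandem libraries, and to 11.4 to 15.7 CPM in Camk2a single and to 18.2 to 22.1 CPM in Rosa single libraries. The groups did not overlap in either kind of ChIP-Seq. Pcdhga12, whose region starts 355 bp from the TSS, stood at 0.46 ± 0.24 (edgeR, adjusted p = 0.13), and the 5 gamma regions placed by gene length lay between -0.63 and 0.12.

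Of the 3 regions of other genes inside the locus, 2 were called lower in Camk2a tandem libraries, beside 14.6% of all regions. Taf7, a subunit of the general transcription factor TFIID that lies between the beta and gamma members, had 41.0, 42.9 and 44.9 CPM in Camk2a tandem and 55.8, 63.8 and 59.1 CPM in Rosa tandem libraries (log2 fold change -0.46 ± 0.11 SE, edgeR adjusted p = 0.00043). Slc25a2, a mitochondrial carrier gene next to it, had no region. The region of 3222401L13Rik, also between the beta and gamma members, was lower in Camk2a tandem libraries (-1.66 ± 0.35 SE, edgeR adjusted p = 4.6e-05), and that of Gm10544, between the alpha and beta members, stood at 0.39 ± 0.32 (adjusted p = 0.36). Of the 3 regions of the locus without an annotated TSS, that between the alpha and beta members stood at 0.49 ± 0.20. The 2 among the gamma members stood at -0.63 ± 0.37 and -0.83 ± 0.32. None of the 3 was called (edgeR, adjusted p between 0.030 and 0.18). As some gamma genes have no TSS in the annotation, it cannot be told whether these 2 regions lie at a gamma promoter. Of 9 regions with TSSs of other genes within 200 kb of the locus, 1 was called higher and 1 lower. The shares of all regions were 17.0% and 14.6%. The log2 fold changes of the 9 regions ran from -0.71 to 0.38.

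**Figure D4:**
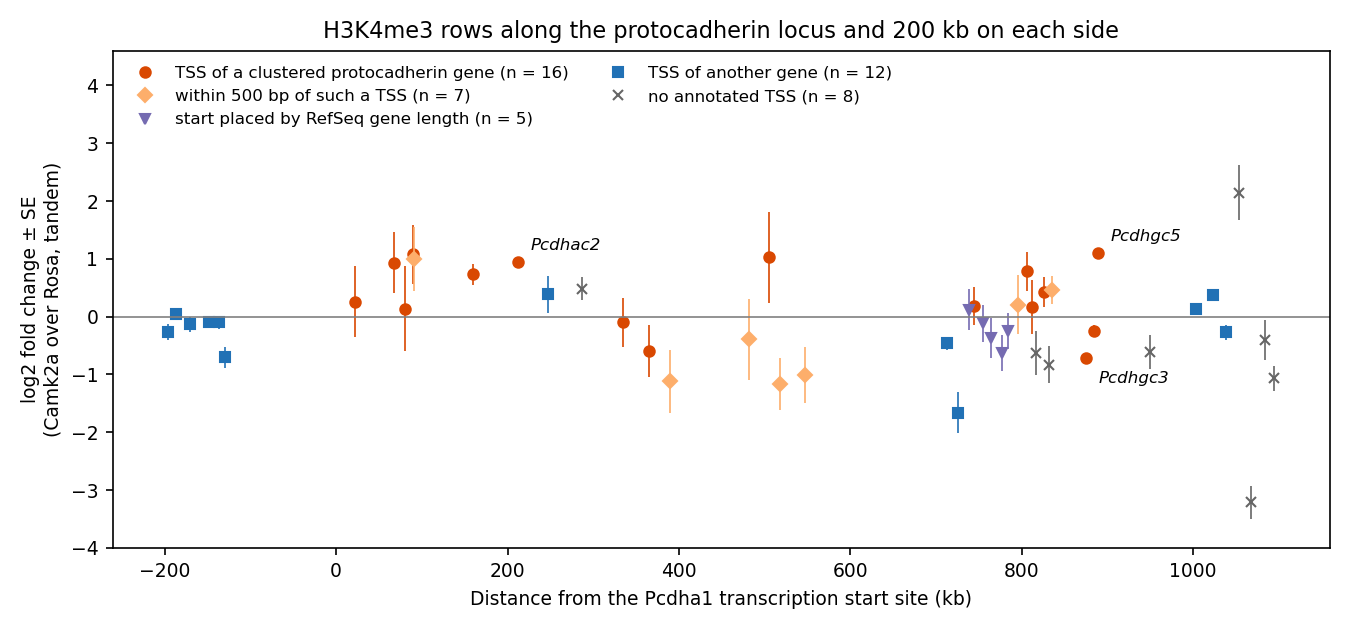
log2 fold change (Camk2a over Rosa H2B-FLAG in tChIP-Seq) with SE for each peak region of the locus and of 200 kb on both sides, against the distance from the Pcdha1 TSS in kb. Symbols give the kind of region. Pcdhgc5 lies above 1 and Pcdhgc3 below -0.5 although both lie at the right end of the gamma cluster with Pcdhgc4 between them, and the 3 regions beyond an absolute value of 1.5 are a region of another gene and 2 regions without a TSS.

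Genes related to the clustered protocadherins were described from lists chosen with earlier results of these data known. The non-clustered protocadherins have the same extracellular cadherin repeats but single genes outside the locus. Regions were present for 10 of 12 of these genes, 11 regions in all. In tChIP-Seq 8 of the 11 regions were called higher in Camk2a and none lower, with a median log2 fold change of 0.35, beside 17.0% higher and 14.6% lower of all regions. The regions called were both regions of Pcdh15 (1.01 ± 0.099 and 0.75 ± 0.19), Pcdh20 (0.64 ± 0.12), Pcdh9 (0.57 ± 0.066), Pcdh8 (0.53 ± 0.095), Pcdh10 (0.35 ± 0.048), Pcdh17 (0.25 ± 0.061) and Pcdh19 (0.24 ± 0.078), all with SE. Pcdh18 stood at -0.34 ± 0.13 (SE, edgeR adjusted p = 0.025). In single ChIP-Seq none of the 11 was called, beside 2.15% of all regions.

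Genes listed as possible regulators of the clustered promoters, with roles in chromatin loops, DNA methylation or silencing, had 21 regions for 20 genes. None was called higher in Camk2a in tChIP-Seq and 3 were called lower, with a median of -0.09, beside 17.0% higher and 14.6% lower of all regions. The share called lower was near that of all regions. The called regions were 1 of the 2 regions of the DNA methyltransferase gene Dnmt3a (-2.09 ± 0.27 SE, edgeR adjusted p = 3.7e-10), that of the repressor of neuronal genes Rest (-0.89 ± 0.093 SE, adjusted p = 1.8e-13) and that of Dnmt3b (-0.40 ± 0.10 SE, adjusted p = 0.00062). The other Dnmt3a region stood at 0.07 ± 0.063 (SE, edgeR adjusted p = 0.38). Its mean level was 162 CPM in Rosa tandem libraries, beside 17.35 CPM at the called Dnmt3a region. Ctcf, the insulator protein gene, stood at 0.02 ± 0.075, and the cohesin gene Rad21 at -0.11 ± 0.079. Genes of the intracellular partners of protocadherins had 15 regions for 15 of 16 genes, of which 4 were called higher and none lower, with a median of 0.07, beside the same shares of all regions. These were the kinase genes Ptk2b (1.27 ± 0.099 SE, edgeR adjusted p = 2.1e-19) and Prkca (0.27 ± 0.067 SE, adjusted p = 0.00053) and the WAVE complex genes Cyfip2 (0.71 ± 0.067 SE, adjusted p = 1.7e-15) and Wasf1 (0.33 ± 0.062 SE, adjusted p = 5.5e-06). In single ChIP-Seq, where 1.22% of all regions were called lower, 1 regulator region and 2 partner regions were called lower. These were Wapal (-0.16 ± 0.043 SE, edgeR adjusted p = 0.0085), Nckap1 (-0.20 ± 0.046 SE, adjusted p = 0.0027) and Ctnnb1 (-0.18 ± 0.046 SE, adjusted p = 0.0084).

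**Figure D5:**
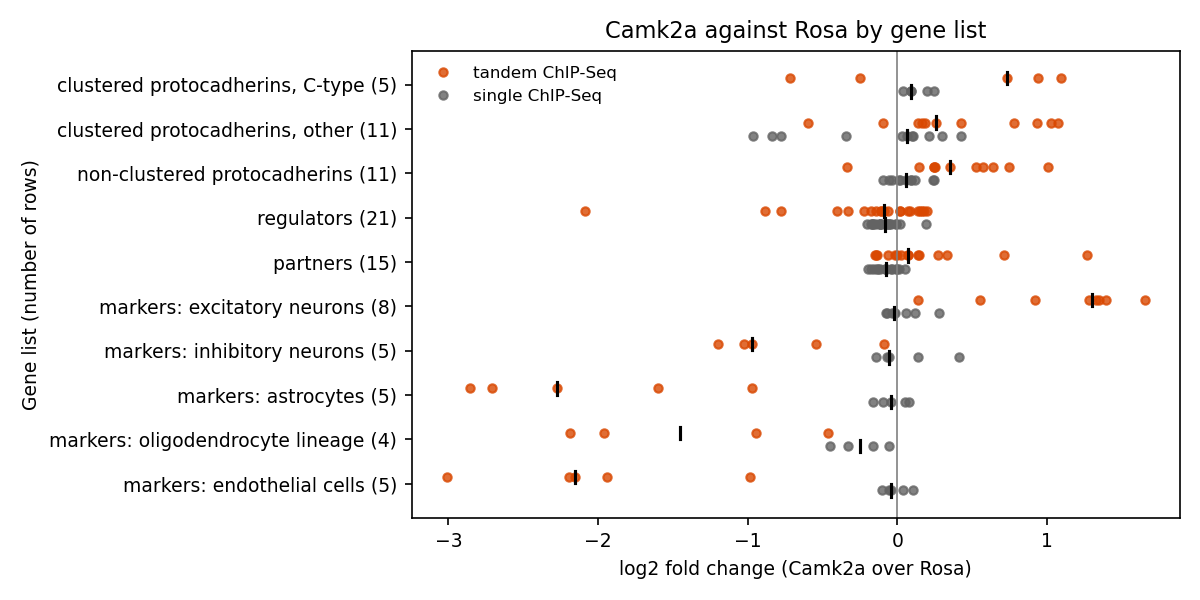
log2 fold change (Camk2a over Rosa H2B-FLAG) of each region of the clustered protocadherins, of related genes and of cell type markers, with orange points for tChIP-Seq, grey points for single ChIP-Seq and black ticks for the median. In tChIP-Seq the 5 C-type promoters spread from -0.72 to 1.10, the excitatory neuron markers lie above 0, and the markers of astrocytes, oligodendrocytes and endothelial cells lie below 0. The microglial genes had no region and are not drawn.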

How the data were processed

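H3K4me3 libraries of cerebral cortex were analysed as 4 groups of 3, grouped by the genotype and antibodies in the labels, and 12 input and FLAG libraries were not analysed here. The authors used bcl2fastq 1.8.4, trimmed reads, removed repeat reads with Bowtie2 2.1.0, mapped the rest to mm9 with Bowtie 1.0.0, removed duplicates and called peaks reproducible in triplicates. They counted reads per peak with bedtools 2.17.0 and deposited whole-number counts without normalization. How the 17993 regions were merged from peak calls is not given in the sources used here. Removing repeat reads and duplicates can lower counts at similar promoters and at high depth.

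Counts were tested in edgeR 4.0.16 under R 4.3.3 (TMM, glmQLFit, glmQLFTest, no filter on low counts), with Benjamini-Hochberg adjustment over all regions and calls at an adjusted p under 0.01. SE was obtained from each log2 fold change and its F statistic, as the absolute change over the root of F. The fits were tested on simulated data. Exact tests used scipy. TSSs came from GENCODE M1, which gives nearly all alpha transcripts the symbol Pcdha11 and all gamma transcripts the symbol Pcdhgc5. Of 20 TSSs of these 2 entries, 19 were therefore named by matching their distance from the gene end to RefSeq gene lengths (GRCm38.p6) within 500 bp, 14 of them without a difference. Regions were named if C-type, if among the 3 called with the largest change per cluster, comparison and direction, or if highest or lowest in their cluster. Members and gene lists were chosen with earlier results of these data known. Alternatives were DESeq2 size factors, library totals, DESeq2's Wald test, a minimum of 10 counts, a threshold of 0.05, a single fit, a replicate block, thinning, other member rules and leaving out libraries. Nothing states that the lysates of a group came from separate litters, so p-values cover the spread between these libraries. No sequence is printed.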

Additional observations from a re-analysis of the deposited data

Results flagged for a closer look

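The difference between the lines depended on the kind of ChIP-Seq at 4 of the 16 members. This was by the interaction over 12 libraries at an adjusted p under 0.01 in edgeR. The same test called 26.9% of all regions, so the share of members called was near that of all regions. The interaction was 1.00 on the log2 scale at Pcdhgc5 and 0.84 at Pcdhac2, where the difference between the lines was 1.10 and 0.94 in tChIP-Seq and 0.09 at both in single ChIP-Seq. It was -0.76 at Pcdhgc3 and -0.46 at Pcdhgc4, and the latter lost its call without Rosa tandem replicate 3 (-0.41, adjusted p = 0.017). Groups of 3 libraries were not searched for libraries that stand apart.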

How the results depend on the processing

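Between the lines in tChIP-Seq, the 3 higher members (Pcdhgc5, Pcdhac2 and Pcdhac1) and the 1 lower member (Pcdhgc3) were called under each of the 12 alternatives of the fit, and their log2 fold changes ranged from 1.02 to 1.16, 0.87 to 0.97, 0.65 to 0.81 and -0.79 to -0.69. No called member changed sign. Lower members numbered 2 with library totals and 2 at a threshold of 0.05, with Pcdhgc4 added. In single ChIP-Seq, 1 lower region (Pcdhb16) was added by taking in regions within 500 bp of a TSS. Also taking in regions named by RefSeq length, an alternative added after the data had been seen, added no further one. Members with a negative interaction numbered 1 to 2 when each library was left out, and members lower in Rosa tandem than Rosa single libraries 2 to 3. The latter numbered 1 with library totals, and members higher in Camk2a tandem libraries 2 under DESeq2 against 5. The log2 ratio of summed levels in tChIP-Seq went from 0.90 to 0.835 in alpha and from 0.26 to 0.197 in gamma with library totals, and from -0.10 to -0.605 in beta both within 500 bp and with regions named by length. The beta ratio ranged from -0.297 to 0.073 when each library was left out. The cause of these changes was not tested.

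Replicate numbers are shared by the groups. Deviations from the group means of same-numbered libraries correlated at 0.049, 0.023 and 0.025 in Rosa and at 0.014, 0.005 and 0.046 in Camk2a between single and tandem libraries, over 10491 regions with 50 or more counts in each library. Each Rosa library correlated best with its own number, and not each Camk2a library. With the replicate block, the members called between the lines in tChIP-Seq numbered 3 higher and 1 lower, with 2 positive and 2 negative interactions, as without the block. Over all regions, calls went from 386 in edgeR to 17 in DESeq2 between the lines in single ChIP-Seq, and from 8617 to 5563 between tandem and single libraries in Camk2a.

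At the 11 promoters outside the C-type group, Rosa tandem libraries held between 0 and 22 counts each. Of all regions with summed counts from 75 to 510, 27.4% were called between the lines in tChIP-Seq. Most of the 11 lay in the lower part of this range.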
